A study of Homo sapiens with 16 samples.

Results

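A set of 9 genes of the complement system and of the acute-phase and mucosal defence response was followed in OVCAR3 and UWB1.289 ovarian carcinoma cells treated with the PARP inhibitor olaparib or with vehicle, out of 59428 genes in the count table. The members were C3, CFB, C1R, C1S, PTX3, SAA1, SAA2, LCN2 and PI3. They were picked by name, several of them because they were higher with olaparib in these same libraries, so their olaparib responses are given as a description without a test. The study asked how PARP inhibition alters gene expression in cells with and without functional BRCA1. OVCAR3 carries intact BRCA1 and was kept in RPMI1640 with serum and bovine insulin, and UWB1.289 carries a deleterious BRCA1 and was kept in a mixture of MEGM and RPMI1640 with less serum. OVCAR3 received 7.5 µM and UWB1.289 3.5 µM olaparib, each line at its own IC50, and the control cells received DMSO. All cells were harvested after 96 h, with 4 libraries in each of the 4 groups. Each BRCA1 status was represented by 1 line, so line, BRCA1 status, olaparib dose and medium cannot be told apart.

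Complement is a cascade of plasma proteases in which the C1r and C1s proteases start the classical pathway, factor B builds the alternative pathway convertase, and all routes meet at the cleavage of C3. Acute-phase proteins are made in larger amounts during inflammation under the control of NF-kB, STAT3 and C/EBP factors, mostly in the liver but also in epithelia and tumour cells. Pentraxin 3 (PTX3) is a locally produced pattern recognition molecule that binds C1q, serum amyloid A (SAA1 and SAA2) is a classical acute-phase apolipoprotein, lipocalin 2 (LCN2) withholds iron-loaded siderophores from bacteria, and elafin (PI3) inhibits neutrophil elastase at epithelial surfaces.

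The promoters of 4 of the 9 members were present in the RefSeq table used here (GRCh38.p14, 300 bases around the RefSeq start) and are shown because the factors named above act at such sites. They lie at chr6:31945845-31946144 on the plus strand for CFB, chr12:7092396-7092695 on the minus strand for C1R, chr3:157436600-157436899 on the plus strand for PTX3 and chr9:128149203-128149502 on the plus strand for LCN2. Capitals mark matches to the NF-kB motif (GGGA and CC with 4 bases of any kind between them) or the C/EBP letters TTGCNNAA on either strand.
CFB: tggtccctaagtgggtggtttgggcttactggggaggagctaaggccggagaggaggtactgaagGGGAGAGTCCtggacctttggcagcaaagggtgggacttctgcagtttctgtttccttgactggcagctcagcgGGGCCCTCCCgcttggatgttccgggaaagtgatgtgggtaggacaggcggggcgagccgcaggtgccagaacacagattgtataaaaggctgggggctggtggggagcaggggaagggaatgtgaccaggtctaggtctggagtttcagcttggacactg
C1R: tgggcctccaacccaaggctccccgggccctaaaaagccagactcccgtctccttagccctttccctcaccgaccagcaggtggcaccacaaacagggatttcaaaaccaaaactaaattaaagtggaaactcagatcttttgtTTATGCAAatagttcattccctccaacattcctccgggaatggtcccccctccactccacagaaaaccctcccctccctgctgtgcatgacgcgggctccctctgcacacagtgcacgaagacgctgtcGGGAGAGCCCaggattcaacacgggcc
PTX3: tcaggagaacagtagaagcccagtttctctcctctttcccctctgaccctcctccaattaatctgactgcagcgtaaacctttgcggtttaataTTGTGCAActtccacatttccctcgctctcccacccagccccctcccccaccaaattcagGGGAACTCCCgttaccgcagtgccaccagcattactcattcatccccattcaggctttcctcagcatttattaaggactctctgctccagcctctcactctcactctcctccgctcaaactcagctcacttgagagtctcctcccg
LCN2: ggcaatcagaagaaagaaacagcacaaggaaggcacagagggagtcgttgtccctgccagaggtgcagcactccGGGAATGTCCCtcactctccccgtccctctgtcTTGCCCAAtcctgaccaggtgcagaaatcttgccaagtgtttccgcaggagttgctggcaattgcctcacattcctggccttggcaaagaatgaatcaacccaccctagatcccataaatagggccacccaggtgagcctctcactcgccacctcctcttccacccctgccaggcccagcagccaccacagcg
The NF-kB motif was found in 4 of these 4 windows and in 25.1% of all 27305 promoter windows in the table. Positions are counted from the RefSeq start. In GENCODE the genes CFB (from 31945650), LCN2 (from 128149071) and C1R (from 7092540 on its strand) begin further upstream, so the CFB and LCN2 windows lie within the annotated gene. PTX3 held its match 96 bases before the RefSeq start, LCN2 held a pair of overlapping matches, read on opposite strands, 176 and 175 bases before it, and CFB held matches 185 and 111 bases before it. In C1R the match lay 23 bases after it. The C/EBP letters were found in 3 of 4 windows against 10.6% of all windows, at 156 bases before the start in PTX3, 143 in LCN2 and 106 in C1R. The STAT letters TTCNNNGAA (7.88% of all windows) and the interferon response motif (GAAA and GAAA with 2 bases of any kind between them, 3.65%) were each found in 1 of 4 windows, that of CFB, 92 and 140 bases before the start, and are not marked. These matches are a description of the letters and not evidence of binding. Windows of C3, C1S, SAA1, SAA2 and PI3 were not used here.

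The libraries were prepared from the 3' ends of mRNA and held 5599571 to 7730228 counts each (median 6413980). Molecular identifiers are not mentioned in the sources used here, so reads may include copies of the same molecule. Values are counts scaled to library size (CPM) with their SD over 4 libraries unless counts are named. The first principal component carried 84.5% of the variance and separated the lines, the second carried 4.40% and separated olaparib from DMSO, and in both the libraries lay with their group. By the chi-square of counts per gene, OVCAR3 olaparib replicate 4 stood apart, at 7.69 to 11.8 against the other replicates of its group, which differed among themselves by 3.45 to 4.38. Without it the log2 difference with olaparib in OVCAR3 was 1.63 for C3, 0.44 for C1R, 0.55 for C1S, 4.18 for PTX3, 2.21 for LCN2 and 2.73 for PI3. The UWB1.289 olaparib replicates were also uneven, with replicates 3 and 4 at 3.02 and the other pairs at 6.25 to 7.66. The summed level of 7 ovarian serous epithelial markers was 3924 to 4136 CPM in OVCAR3 with DMSO, 2471 to 2834 CPM with olaparib, 7417 to 8018 CPM in UWB1.289 with DMSO and 5741 to 7079 CPM with olaparib. All 7 exceeded 3 counts in a library of OVCAR3 and 6 of 7 in UWB1.289, where WT1 had 0 counts with DMSO. The 5 hepatocyte genes, which mark the main source of acute-phase proteins in the body, summed to 3.07 to 5.84 CPM in OVCAR3 with DMSO, 1.23 to 2.34 CPM with olaparib, 1.44 to 4.51 CPM in UWB1.289 with DMSO and 2.55 to 6.24 CPM with olaparib. ALB had 0 to 5 counts per group and TTR had 0 in every group, while APOA1 stood at 3.40 CPM in OVCAR3 with DMSO and APOB at 2.08 and 3.68 CPM in UWB1.289 with DMSO and olaparib. These sums are of the size of the SAA1 level with olaparib (3.30 and 3.23 CPM), and their part in it was not tested. In bulk RNA, fewer cells expressing a gene and less RNA per cell cannot be told apart.

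C3, the central complement component, was higher with olaparib in both lines. In OVCAR3 the C3 counts were 498, 514, 513 and 622 with DMSO and 1669, 1764, 1714 and 1923 with olaparib, or 82.9 ± 7.57 and 262 ± 13.8 CPM. In UWB1.289 they were 413, 320, 204 and 371 with DMSO and 776, 602, 499 and 658 with olaparib, or 49.5 ± 12.5 and 104 ± 19.7 CPM. In each line the lowest olaparib library was above the highest DMSO library. The fitted difference was 1.64 (SE 0.0810) on the log2 scale in OVCAR3, a 3.11-fold change, and 1.08 (SE 0.149), or 2.11-fold, in UWB1.289. The latter fell below 2-fold without DMSO replicate 3 (0.92) or olaparib replicate 1 (0.96). From low to high, C3 was ordered UWB1.289 with DMSO, OVCAR3 with DMSO, UWB1.289 with olaparib and OVCAR3 with olaparib, and among neighbours only OVCAR3 with DMSO and UWB1.289 with olaparib overlapped.

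Among the proteases that act before C3, the differences with olaparib were small or rested on few reads. C1R, which activates C1s within the C1 complex, had 45, 58, 66 and 53 counts with DMSO and 65, 68, 102 and 74 with olaparib in OVCAR3. In UWB1.289 the C1R counts were 15, 14, 10 and 18 with DMSO and 15, 16, 6 and 18 with olaparib. The C1R groups overlapped in both lines. The log2 difference was 0.39 (SE 0.184) in OVCAR3 and 0.071 (SE 0.361) in UWB1.289, and both are below the 2-fold threshold. C1S, the protease that cleaves C4 and C2, had 26, 24, 52 and 36 counts with DMSO and 42, 59, 54 and 52 with olaparib in OVCAR3, with overlapping groups and a log2 difference of 0.52 (SE 0.227). In UWB1.289 it had 0, 0, 1 and 7 counts with DMSO and 6, 8, 6 and 16 with olaparib. Here the groups overlapped in counts (7 against 6) but not in CPM, where the highest DMSO library stood at 0.930 and the lowest olaparib library at 0.958. The pooled ratio of C1S was 4.83 (95% exact interval 2.21 to 12.03), and the gene did not pass the filter on low counts in that line. The intervals given for pooled counts here and further on cover counting error only.

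CFB, the factor B protease of the alternative pathway, was at the limit of detection. It had 2, 2, 0 and 1 counts with DMSO and 11, 1, 1 and 8 with olaparib in OVCAR3. In UWB1.289 it had 0 counts in all 4 DMSO libraries and 2, 0, 0 and 5 counts with olaparib. The groups overlapped in both lines and CFB passed the filter on low counts in neither. The pooled ratio was 4.04 (1.48 to 13.7) in OVCAR3, and at least 2.51-fold in UWB1.289, computed against a floor of 3 counts over the group. The 7 counts there came from 2 libraries, and the exact interval of the ratio reaches down to 1.55.

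PTX3 had the largest fold among the members with more than 3 DMSO counts in OVCAR3. The PTX3 counts there were 8, 8, 16 and 10 with DMSO and 178, 232, 184 and 185 with olaparib, or 1.60 ± 0.460 and 29.0 ± 4.86 CPM. In UWB1.289 they were 142, 141, 165 and 152 with DMSO and 320, 348, 430 and 396 with olaparib, or 22.9 ± 2.698 and 60.8 ± 6.61 CPM. The groups did not overlap in either line, and the log2 difference was 4.13 (SE 0.211), or 17.5-fold, in OVCAR3 and 1.43 (SE 0.117), or 2.69-fold, in UWB1.289. The untreated UWB1.289 libraries (20.2 to 26.4 CPM) overlapped the olaparib-treated OVCAR3 libraries (26.0 to 36.2 CPM), while OVCAR3 with DMSO lay below and UWB1.289 with olaparib above both. PTX3 (chr3:157436850-157443633, plus strand, GRCh38) lies within VEPH1, which is read from the opposite strand. VEPH1 was not higher with olaparib, with a log2 value of -0.79 in OVCAR3 (SE of 0.254, adjusted p = 0.0277 in edgeR) and -0.20 (SE 0.219, adjusted p = 0.629) in UWB1.289.

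The serum amyloid A genes were nearly absent without olaparib. SAA1 had 1, 0, 0 and 0 counts with DMSO and 24, 21, 13 and 31 with olaparib in OVCAR3. In UWB1.289 it had 2, 6, 0 and 4 counts with DMSO and 17, 22, 17 and 23 with olaparib. The groups did not overlap in either line, and the olaparib levels of the lines overlapped at 3.30 ± 1.06 CPM in OVCAR3 and 3.23 ± 0.575 CPM in UWB1.289. The pooled SAA1 ratio was 85.6 (95% exact interval 15.0 to 3417) in OVCAR3, a wide interval because it rests on 1 DMSO count, and 7.07 (3.83 to 14.3) in UWB1.289, where the fitted log2 difference was 2.78 (SE 0.487). SAA2 had 1, 0, 0 and 0 counts with DMSO and 11, 9, 1 and 13 with olaparib in OVCAR3, and the olaparib library of 1 count overlapped the DMSO libraries. In UWB1.289 it had 1, 0, 1 and 0 counts with DMSO and 1, 5, 15 and 4 with olaparib, where the groups shared 1 count but did not overlap in CPM (at most 0.160 against at least 0.164). The pooled SAA2 ratios were 32.7 (5.48 to 1328) and 13.4 (3.35 to 117), respectively, and SAA2 did not pass the filter on low counts in either line.

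SAA1 (chr11:18266260-18269977, plus strand) and SAA2 (chr11:18239223-18248668, minus strand) lie 17591 bases apart and are near copies, with 494 of 518 aligned transcript bases identical (95.4%) and 252 of 275 (91.6%) over the last 300 bases, the part that 3' libraries read. How the authors treated reads matching both genes is not given in the sources used here, so the split between them is uncertain. Nearly all of SAA2 also lies within SAA2-SAA4 (chr11:18231423-18248635), a protein-coding gene on the same strand that is in the count table. Whether SAA2 reads were shared with it or lost to it was not tested, which also limits the SAA2 counts and shares. SAA2 took 34 of the 123 reads given to either gene with olaparib in OVCAR3 (27.6%, exact interval 20.0 to 36.4%) and 25 of 104 in UWB1.289 (24.0%, 16.2 to 33.4%). With both genes summed before the fit, the log2 difference in UWB1.289 was 2.96 (SE 0.419).

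LCN2 and PI3 were higher with olaparib in both lines and higher in UWB1.289 than in OVCAR3 under both treatments. LCN2 had 42, 40, 50 and 49 counts with DMSO and 223, 221, 204 and 290 with olaparib in OVCAR3, or 6.96 ± 0.137 and 34.7 ± 4.77 CPM. In UWB1.289 it had 909, 945, 760 and 1077 counts with DMSO and 2052, 1540, 1455 and 1774 with olaparib, or 140 ± 15.0 and 278 ± 43.4 CPM. The 4 LCN2 groups did not overlap, and UWB1.289 without olaparib (122 to 158 CPM) stood above OVCAR3 with olaparib (29.1 to 40.8 CPM). The log2 difference was 2.29 (SE 0.141), or 4.89-fold, in OVCAR3 and 1.004 (SE 0.102), or 2.01-fold, in UWB1.289, where it sits on the 2-fold threshold. It dropped below that threshold with replicate number as a block (0.998), with DESeq2 (0.997) and with no filter on low counts (0.987). The same held without DMSO replicate 1 (0.998), DMSO replicate 3 (0.94) or olaparib replicate 1 (0.90).

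PI3 had 43, 76, 59 and 84 counts with DMSO and 465, 486, 386 and 519 with olaparib in OVCAR3, or 10.1 ± 2.93 and 68.9 ± 9.36 CPM. In UWB1.289 it had 191, 269, 221 and 285 counts with DMSO and 963, 772, 1034 and 949 with olaparib, or 36.8 ± 6.61 and 151 ± 12.7 CPM. The 4 PI3 groups did not overlap, and here, unlike for LCN2, the OVCAR3 cells with olaparib lay above the UWB1.289 cells with DMSO. The log2 difference was 2.74 (SE 0.157), or 6.70-fold, in OVCAR3 and 2.06 (SE 0.112), or 4.16-fold, in UWB1.289.

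**Figure D1:**
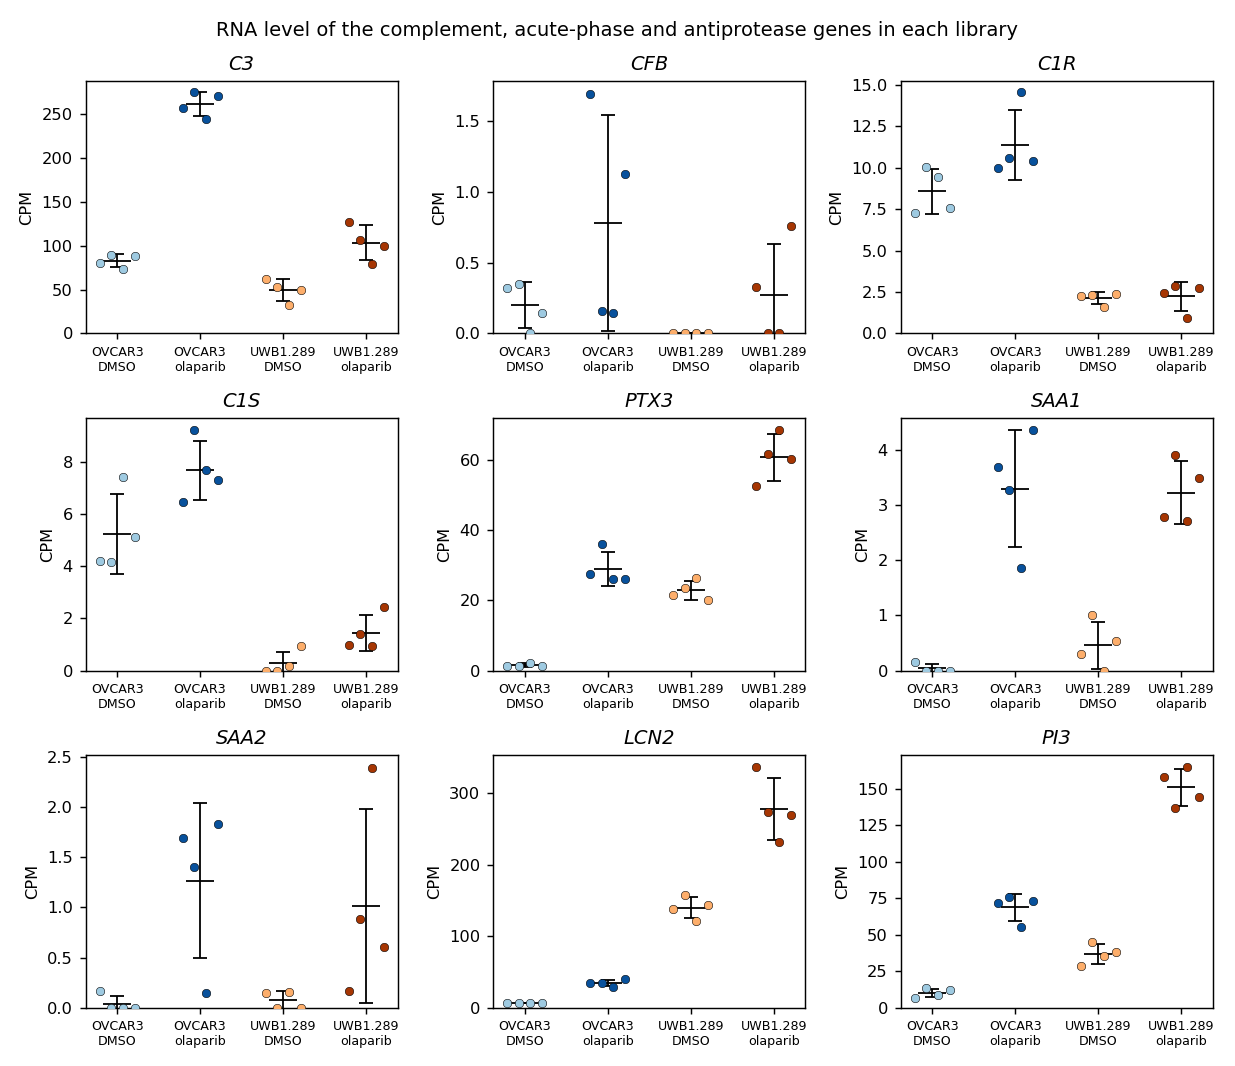
Level of each of the 9 genes in CPM (linear vertical axes from 0, each panel with its own range) in the 4 groups. Points are libraries and the bars give mean ± SD over 4 libraries. PTX3, LCN2 and PI3 stood higher in UWB1.289, C1R and C1S stood higher in OVCAR3, and SAA1 and SAA2 stood near 0 with DMSO in both lines.

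Of the 9 members, 7 passed the filter on low counts in OVCAR3 and 6 in UWB1.289. C3, PTX3, SAA1, LCN2 and PI3 passed the thresholds of the study in each line (adjusted p below 0.1, more than 2-fold, average count above 10), that is 5 of 7 and 5 of 6. This is what they were partly chosen for, so these counts are a description and not a test. SAA1 in both lines and PTX3 in OVCAR3 also passed the filter on low counts only through the olaparib libraries. In UWB1.289 the count was 4 of 6 with replicate number as a block and with DESeq2, both without LCN2. Among all genes tested, 2.9% were called upward in OVCAR3 and 1.93% in UWB1.289. The SAA1 call in OVCAR3 was lost without olaparib replicate 1, 2 or 4 because the average count dropped to 9.04, 9.48 or 8.39. In CPM the olaparib libraries lay above the DMSO libraries without overlap for 5 of the 7 members tested in OVCAR3 and 5 of the 6 in UWB1.289, and in 13.7% and 7.26% of all genes tested. C1S and SAA2, not tested in UWB1.289, were separated there by the scaling to library size alone. The olaparib difference in UWB1.289 minus that in OVCAR3 was -2.699 (SE 0.249) for PTX3, -1.28 (SE 0.176) for LCN2, -0.69 (SE 0.203) for PI3, -0.56 (SE 0.184) for C3 and -0.32 (SE 0.379) for C1R on the log2 scale. It had the opposite sign for C1S, at 1.71 (SE 0.697), and was -3.04 (SE 1.12) for SAA1, a fitted value that rests on 1 DMSO count in OVCAR3. These values are built from the contrasts that chose the members and carry no test. The lines received different doses, so the responses stand side by side only.

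**Figure D2:**
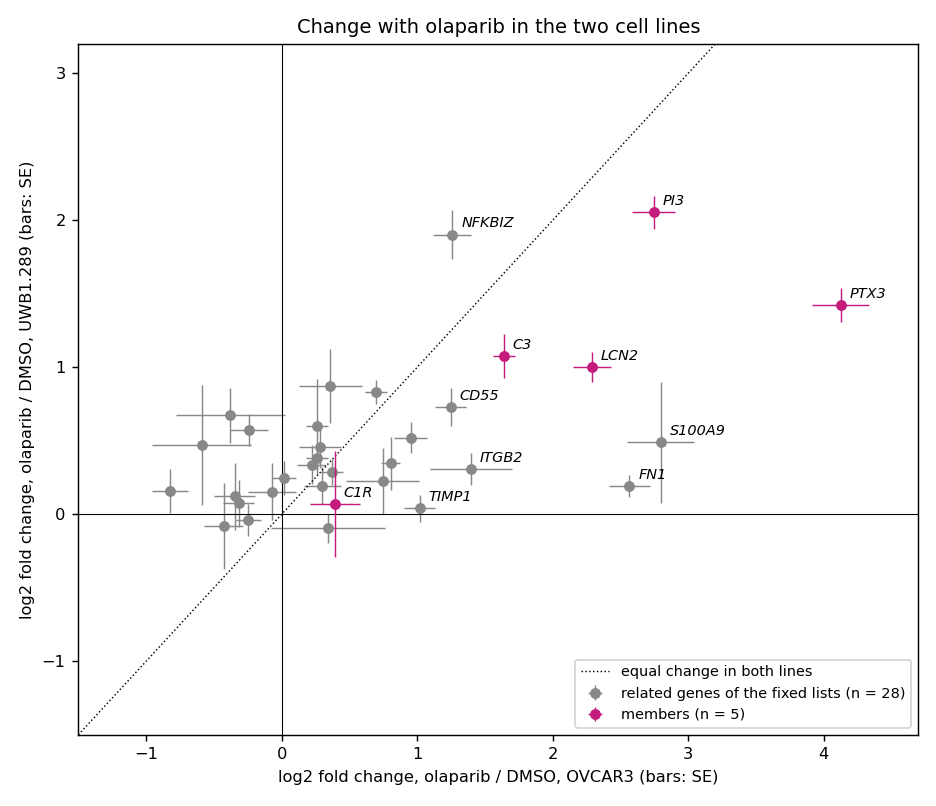
Olaparib against DMSO as log2 fold change in OVCAR3 (horizontal) and UWB1.289 (vertical), with SE bars, for the 5 members with more than 3 DMSO counts in both lines and 28 related genes tested in both. PTX3 lies farthest to the right (4.13) and PI3 highest (2.06), and C1R lies near 0 in UWB1.289 (0.071).

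The stated ground for choosing members was their rise with olaparib and not the comparison of the lines without olaparib. That comparison uses the same DMSO libraries as the olaparib contrasts, and earlier results of these data were known when the members were chosen. The classical pathway proteases C1R and C1S were lower in UWB1.289, and LCN2, PTX3 and PI3 were higher. C1R stood at a log2 difference of -2.01 (SE of 0.255, adjusted p = 3.39e-08 in edgeR), with 2.15 ± 0.370 CPM in UWB1.289 against 8.58 ± 1.38 CPM in OVCAR3. C1S had 8 counts in UWB1.289 and 138 in OVCAR3 (0.273 ± 0.445 against 5.23 ± 1.52 CPM), a pooled ratio of 17.5 (exact interval 8.64 to 41.4). It passed the filter on low counts through OVCAR3, where it is high, so its fitted log2 difference of -4.07 is given as a description, and this was -6.19 without UWB1.289 replicate 4, which held 7 of the 8 counts. LCN2 was higher by 4.30 (SE 0.113, adjusted p = 3.75e-24), a 19.7-fold difference. PI3 was higher by 1.83 (SE 0.163, adjusted p = 2.08e-11) and PTX3 by 3.78 (SE 0.215). PTX3 had 8 to 16 counts in the OVCAR3 libraries and passed the filter on low counts through UWB1.289, so its value is also a description. The 6 members tested include C1S and PTX3, so their count is a description. It was 5 of 6 called, 3 upward and 2 downward, where 38.4% of all genes tested were called between the lines (18.7% upward, 19.7% downward). C3 was lower in UWB1.289 (log2 difference -0.77, SE 0.121, adjusted p = 1.37e-06) without overlap of the groups (69.4% of all genes tested did not overlap, 35.3% with UWB1.289 higher) and stayed under the 2-fold threshold. CFB (5 counts in OVCAR3, 0 in the other line), SAA1 (1 and 12) and SAA2 (1 and 2) did not pass the filter on low counts. The pooled SAA1 ratio was 11.8 (exact interval 1.75 to 505). With olaparib included, both UWB1.289 groups lay below both OVCAR3 groups for C1R and C1S without overlap, whereas for SAA1 and SAA2 the lines overlapped at each treatment and for CFB neighbouring groups overlapped throughout.

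C1R (chr12:7080214-7092540, minus strand) and C1S (chr12:6988259-7071032, plus strand) lie 9181 bases apart. Of the other members C3 lies at chr19:6677704-6730562 (minus strand), CFB at chr6:31945650-31952086, LCN2 at chr9:128149071-128153453 and PI3 at chr20:45174902-45176544 (plus strand). C3 overlaps GPR108 on the same strand, whose log2 difference with olaparib was -0.18 (SE 0.162) in OVCAR3 and -0.13 (SE 0.189) in UWB1.289. CFB overlaps the end of C2, which was not tested. Nearly all of CFB also lies within a protein-coding gene without a symbol on the same strand (chr6:31927698-31952048). That gene was not found in the count table, and its part in the low CFB counts was not tested. C1R overlaps C1RL on the same strand, and C1RL was lower in UWB1.289 as well (log2 difference -1.48, SE 0.182, adjusted p = 1.82e-08). C1S overlaps LPCAT3 on the opposite strand, and LPCAT3 was higher in UWB1.289 by 1.59 (SE 0.159, adjusted p = 2.56e-10), opposite to C1S. Whether reads of overlapping genes were shared between them was not tested. The summed level of 8 leukocyte and macrophage markers also differed between the lines, at 0.347 to 1.78 CPM in OVCAR3 and 8.64 to 11.2 CPM in UWB1.289 with DMSO, and stood at 14.5 to 20.6 CPM in UWB1.289 with olaparib against 0.780 to 1.23 CPM in OVCAR3 with olaparib. In UWB1.289, 3 of 8 exceeded 3 counts in a library, in OVCAR3 1 of 8. PTPRC had 162 and 195 counts and CD14 83 and 186 counts in UWB1.289 with DMSO and olaparib, while CSF1R, CD163, CD3E and MS4A1 were at 0 or 1 count. The 6 fibroblast markers summed to 22.1 to 30.4 CPM in OVCAR3 and 44.05 to 61.1 CPM in UWB1.289 with DMSO, and to 32.8 to 39.5 and 25.6 to 31.6 CPM with olaparib. The part of these markers in the LCN2, PTX3 and PI3 values was not tested.

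**Figure D3:**
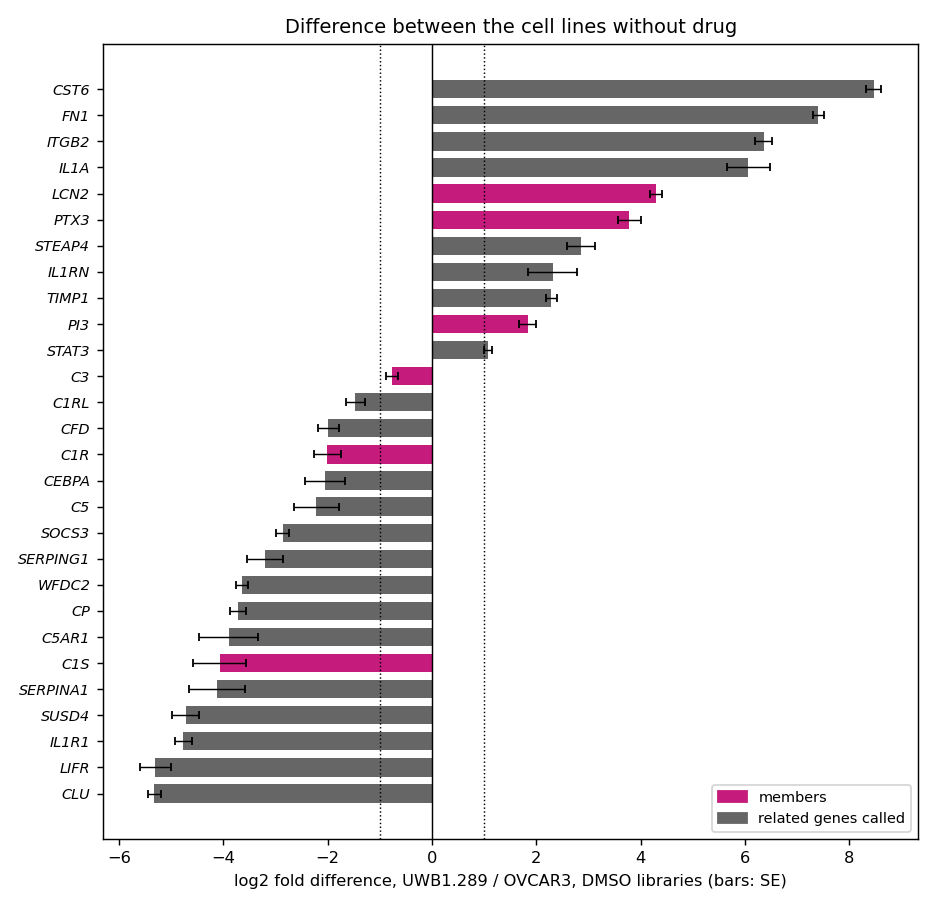
Difference between UWB1.289 and OVCAR3 with DMSO as log2 values with SE bars for the 6 tested members and 22 related genes that were called and had more than 3 counts in each line. Dotted lines mark a log2 difference of 1 in either direction. LCN2 (4.30), PTX3 (3.78) and PI3 (1.83) extend upward, and C1S (-4.07) and C1R (-2.01) downward.

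Among 13221 genes with profiles over the 4 group means, those closest to each member were named by the root mean square difference of the centred log2 CPM values, over 4 groups only. The nearest to PTX3 were TNF (0.259) and CXCL8 (0.446), and the nearest to SAA1 were ADAMTS9 (0.262) and CXCL1 (0.310). LCN2 was nearest to ICAM1 (0.0893) and TGFBI (0.202), and PI3 to TNFRSF9 (0.0767) and IL4I1 (0.238). TNFRSF9 had 1 count in OVCAR3 with DMSO (0.0356 CPM, against 2.14 CPM with olaparib), so its profile, like that of SAA1, depends on the prior count of 2 in the log2 CPM values. C3 was nearest to CDKN1A (0.112), a cell cycle inhibitor, and to NFKBIA (0.188), the NF-kB inhibitor. The CDKN1A level was 6.96 and 19.4 CPM in OVCAR3 and 3.41 and 7.06 CPM in UWB1.289, each with DMSO and olaparib. C1R and C1S, whose profiles mainly follow the line, were nearest to URB1 (0.0358) and SEZ6L2 (0.0365) and to SIX3 (0.165) and IQCD (0.166), respectively. The prior count also enters other profiles that rest on few counts. With DMSO, C1S had 8 and SIX3 13 counts in UWB1.289, and TGFBI had 10 and TNF 16 counts in OVCAR3. With 4 points per profile such a ranking is a description.

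To place the members among their pathways, 122 related genes in 8 lists were examined, and 39 were tested in OVCAR3. The lists were drawn up with earlier results of these data known, which limits every share set against all genes below. There 7 of 39 (17.9%) were called upward with olaparib and 0 downward (edgeR, with 6 lower at an unadjusted p below 0.05, and 0 with DESeq2), against 2.9% of all genes called upward and 2.33% downward. The median log2 difference of the 39 was 0.26 against -0.012 over all genes. With no fold threshold 14 were called upward and 5 downward. The latter were CP (-0.82), CFD (-0.43), CLU (-0.32), SUSD4 (-0.31) and CD46 (-0.25). The antimicrobial calprotectin subunits S100A8 (log2 3.34, SE 0.360) and S100A9 (2.80, SE 0.247, adjusted p = 6.62e-08) rose, 2 of 2 tested in that list. FN1, which encodes fibronectin, rose by 2.57 (SE 0.151, adjusted p = 3.11e-10), 1 of 4 tested acute-phase genes. Among 8 regulators of complement 1 gene, CD55, the decay-accelerating factor, rose (1.25, SE 0.114, adjusted p = 1.02e-07), from 27.2 to 65.8 CPM. ITGB2, the beta chain of complement receptor 3, rose by 1.40 (SE 0.303) from 1.64 to 4.38 CPM, 1 of 2 receptors tested. S100A8 and ITGB2 had DMSO libraries of 2 to 8 and 9 to 13 counts, respectively. Both passed the filter on low counts through the olaparib libraries, so their values and the count of 7 are a description. The antiprotease TIMP1 rose by 1.02 (SE 0.114, adjusted p = 1.60e-06), 1 of 7, and its call was lost without DMSO replicate 2 (0.997). NFKBIZ, a nuclear co-regulator of NF-kB target genes including LCN2, rose by 1.26 (SE 0.141, adjusted p = 1.69e-06), 1 of 13 signalling and transcription genes. In the lists of the classical and lectin pathway (1 tested) and of the alternative and terminal pathway (2 tested) 0 genes were called.

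In UWB1.289, 4 of 34 related genes tested (11.8%) rose and 0 fell (edgeR, 0 lower at an unadjusted p below 0.05, and 0 with DESeq2), against 1.93% of all genes called upward and 0.282% downward. The median was 0.34 against -0.0044 over all genes, and 31 of 34 were higher with olaparib. All 4 belonged to the 13 tested genes of signalling and transcription. NFKBIZ rose by 1.90 (SE 0.165, adjusted p = 2.01e-08) from 6.81 to 25.1 CPM. IL1RN, the interleukin 1 receptor antagonist, rose by 2.28 (SE 0.230, adjusted p = 2.57e-07), IL1B by 1.42 (SE 0.257, adjusted p = 7.14e-04) and IL1A by 1.07 (SE 0.184, adjusted p = 4.02e-04). The IL1A call was lost without DMSO replicate 4 (0.99), olaparib replicate 2 (0.99) or olaparib replicate 3 (0.92). CD55 stood 0.73 higher (adjusted p = 4.95e-04), under the 2-fold threshold. NFKBIZ was the 1 related gene called in both lines.

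Whether the lines differed in their response was tested for the related genes, and 5 of 46 (10.9%) passed, 2 upward and 3 downward, against 3.66% of all genes (2% upward, 1.66% downward). With the OVCAR3 effect subtracted from that in UWB1.289, the difference was -2.37 (SE 0.160, adjusted p = 2.33e-11) for FN1, -2.30 (SE 0.498, adjusted p = 0.00308) for S100A9 and -1.09 (SE 0.284) for ITGB2. It was 3.32 (SE 0.791) for IL1RN and 2.06 (SE 0.691) for SERPINA1, the alpha-1 antitrypsin gene. FN1 was already at 1706 CPM in UWB1.289 with DMSO and 9.88 CPM in OVCAR3, and IL1RN in OVCAR3 rested on 20 counts with DMSO and 10 with olaparib. SERPINA1 in UWB1.289 rested on 4 counts with DMSO and 24 with olaparib. Its call was lost without UWB1.289 DMSO replicate 1, 3 or 4, UWB1.289 olaparib replicate 3 or 4, or OVCAR3 DMSO replicate 4. IL1RN passed the filter on low counts through UWB1.289 and SERPINA1 through OVCAR3. ITGB2 had 9 to 13 counts in the OVCAR3 libraries with DMSO. The values of IL1RN, SERPINA1 and ITGB2 and the count of 5 are therefore a description. S100A8 had 0 counts in all UWB1.289 libraries.

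Between the lines with DMSO, 26 of 41 related genes (63.4%) passed, 10 higher and 16 lower in UWB1.289, against 38.4% of all genes. Their median log2 difference was -0.44, also with CFI and CSMD1 set to their bounds, against -0.024 over all genes. CFI, CSMD1, C5AR1, SERPINA1, CSTA, IL1A and IL1B had at most 5 counts in the lower line and passed the filter through the other. SUSD4, LIFR, C5, SERPING1 and CEBPA had at most 9 counts in any UWB1.289 library and passed through OVCAR3. ITGB2, CST6, STEAP4 and IL1RN had OVCAR3 libraries of 9 counts or fewer and passed through UWB1.289. The values of all these genes and the count are therefore a description. Of 8 regulators tested 5 were lower, among them CLU, an inhibitor of the terminal complex (-5.32, SE 0.123, adjusted p = 1.47e-25) and SUSD4 (-4.72, SE 0.262). CFI, the protease that inactivates C3b, had 183 counts in the OVCAR3 group against 0, at least 61.9-fold lower against the floor of 3 counts over the group. CSMD1 had 137 and 0 counts, at least 46.4-fold lower. Of the alternative and terminal pathway both tested genes were lower, CFD (-1.99, SE 0.200, adjusted p = 3.03e-10) and C5 (-2.22). The receptors split, with ITGB2 higher by 6.36 (SE 0.166) and C5AR1 at 79 counts in OVCAR3 against 5, a ratio of 16.04 (6.59 to 50.8).

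Acute-phase genes and antiproteases also split between the lines. FN1 was higher in UWB1.289 by 7.40 (SE 0.105, adjusted p = 2.31e-30) and STEAP4 by 2.86, while CP, the copper carrier ceruloplasmin, was lower (-3.72, SE 0.156, adjusted p = 3.29e-19). SERPINA1 had 76 counts in OVCAR3 against 4, a ratio of 19.3 (7.23 to 72.6). The cystatin CST6 was higher by 8.46 (SE 0.147) and TIMP1 by 2.28 (SE 0.104, adjusted p = 2.65e-18). CSTA, another cysteine protease inhibitor, had 2 counts in OVCAR3 against 127, a ratio of 62.5 (17.0 to 522). WFDC2, which encodes the ovarian tumour marker HE4, was lower (-3.64, SE 0.119, adjusted p = 7.13e-22). Among 15 signalling genes 4 were higher and 4 lower. IL1A had 4 counts in OVCAR3 against 307, a ratio of 75.6 (29.2 to 279), and IL1B had 1 and 91 counts, a ratio of 89.6 (15.7 to 3579). The receptors LIFR (-5.30, SE 0.296) and IL1R1 (-4.77, SE 0.156, adjusted p = 7.59e-22) were lower. The calls of C5AR1 and SERPINA1 were lost without any one of the OVCAR3 libraries, and that of IL1B without UWB1.289 replicate 2, 3 or 4, because their average count dropped to 10 or below.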

How the data were processed

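RNA of OVCAR3 and UWB1.289 cells was sequenced from 3' ends (QuantSeq). The authors trimmed the reads, aligned them to hg38 with STAR 2.7.9a and counted them per gene with featureCounts 2.0.0 on GENCODE annotation, and deposited raw counts for 59428 genes in 16 libraries. Settings for strand, multiple matches and overlapping genes are not given in the sources used here. The values are counts, read as deposited. The members and gene lists were chosen with earlier results of these data known.

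Counts were analysed with edgeR 4.0.16 in R 4.3.3 (TMM, filterByExpr, quasi-likelihood F test), each comparison fitted on its own groups, and p-values were adjusted by Benjamini-Hochberg over all genes tested. A gene was called at an adjusted p below 0.1, a fold above 2 and an average normalised count above 10. CPM used the TMM library sizes. Standard errors come from the same fits. Of the related lists, called genes were named, at most 4 per list and comparison, largest change first, and for each member with an average count above 10 the 2 nearest profiles. Sequences and positions came from RefSeq (GRCh38.p14) and GENCODE (GRCh38). The scripts were tested on simulated data.

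DESeq2 1.42.0, other filters and thresholds, leaving out each library, and replicate number as a block were tried as alternatives. The labels number the replicates of each group, and the design text says the experiment was repeated, but separate cultures are not stated, so p-values measure the spread between these samples. Same-numbered DMSO and olaparib libraries deviated together at r = 0.133 to 0.224 in UWB1.289 and 0.0347 to 0.165 in OVCAR3 (9536 genes). Libraries of unlike number ranged from -0.210 to 0.156 in UWB1.289 and from -0.212 to 0.135 in OVCAR3. The ranges overlap, so these values do not settle whether numbers mark pairs. The main fits leave replicate number out, and it enters only in the block alternative. No libraries were identical.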

Additional observations from a re-analysis of the deposited data

Results flagged for a closer look

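Of the 36 member-by-group sets of 4 libraries 35 had a range, and 6 held a library whose gap to the nearest other library was above Dixon's 95% critical value, where chance alone gives about 1 in 20. C1R stood at 1.60 CPM (10 counts) in the third UWB1.289 library with DMSO against 2.27 to 2.39 CPM in the others, and at 14.6 CPM (102 counts) in the third OVCAR3 library with olaparib against 10.01 to 10.6 CPM. PTX3 stood at 2.28 CPM (16 counts) in the third OVCAR3 library with DMSO against 1.295 to 1.42 CPM, and at 36.2 CPM (232 counts) in the second OVCAR3 library with olaparib against 26.0 to 27.4 CPM. SAA1 and SAA2 each stood at 0.162 CPM in the first OVCAR3 library with DMSO, which is 1 count, against 0 in the others, and such a set passes the criterion by construction.

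For 5 related genes the olaparib effect differed between the lines by the edgeR test of that difference (UWB1.289 minus OVCAR3, log2). The values were -1.09 for ITGB2, 2.06 for SERPINA1, -2.37 for FN1, -2.30 for S100A9 and 3.32 for IL1RN. As stated above, the count of 5 and the values of ITGB2, SERPINA1 and IL1RN are a description. SERPINA1 missed the threshold with DESeq2 (adjusted p = 0.114) and without a filter on low counts (adjusted p = 0.175), and ITGB2 fell under the 2-fold threshold without the first UWB1.289 library with DMSO (-0.99) or the fourth OVCAR3 library with DMSO (-0.9998).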

How the results depend on the processing

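Across all alternatives, the log2 differences of the members kept their direction except C1R with olaparib in UWB1.289, which was -0.043 without DMSO replicate 3, -0.054 without olaparib replicate 2 and -0.048 without olaparib replicate 4 (range over left-out libraries -0.054 to 0.32). The fitted SAA1 value in OVCAR3 moved from 5.83 to 4.87 with a prior count of 0.5 and to 7.46 without the first DMSO library, which held its 1 DMSO count. With no fold threshold the related genes called numbered 19 in OVCAR3 (14 up, 5 down), 14 in UWB1.289 and 10 for the difference between the lines. With an average count above 50, 15 related genes and 3 members were called between the lines, C1R and C1S being lost, and 2 related genes for the difference of effects. Leaving out 1 library gave 7 to 9 related genes in OVCAR3, 3 to 4 in UWB1.289, 24 to 26 between the lines and 4 to 7 for the difference of effects, and 5 members between the lines each time. With the replicate block, 8, 4, 26 and 7 related genes were called, and LCN2 in UWB1.289 was 0.998 and under the 2-fold threshold, with no other call changed in that line. Low counts limit CFB, SAA2, SAA1 and, in UWB1.289, C1S.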
